A study of Rattus norvegicus with 40 samples.

Results

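Total RNA of rat cerebral cortex was compared between hypoxic preconditioning and a sham exposure in the samples numbered 6 to 10. The 5 preconditioned arrays, labelled PC6 to PC10, came from the group under low oxygen, and the 5 sham arrays, Sham 6 to Sham 10, from the normoxic control. The arrays were picked by these labels, with earlier results of these data known. They are 10 of the 40 Affymetrix expression arrays of the series. The other 30 arrays carry the numbers 1 to 5, 11 to 15 and 16 to 20 in the same 2 groups, and here they helped to estimate the spread between arrays. The sources used here do not give what a number stands for, the strain, sex or age of the rats, the oxygen level or the length of exposure. No label states that each sample is a separate animal. The p-values therefore reflect the spread between samples, an unknown part of which may be technical.

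Cells short of oxygen stop breaking down hypoxia-inducible factor (HIF), a transcription factor that binds short DNA elements and switches on genes for glucose uptake, glycolysis and vessel growth. In the brain, a mild spell of low oxygen of this kind is known to make the tissue more tolerant of a later injury. Vessel growth there runs through Vegfa and its receptor Kdr, while the angiopoietins, acting on the receptor Tek, loosen or settle the endothelium.

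All values below are log2 probe set intensities after a floor of 16, so that 4.00 is the floor, and a difference is the preconditioned minus the sham mean with the standard error (SE) of the limma fit. A probe set or gene is said to have risen or fallen where limma's p-value, after Benjamini-Hochberg adjustment over 18625 probe sets, was under 0.05. The number of arrays limits the precision. Before any comparison, PC6 stood apart from the other 9 arrays. Its median was 5.53 against 5.72 to 5.81, and 29.8% of its probe sets lay at the floor against 23.7% to 25.7%. Its actin 3' to 5' ratio, a sign of RNA integrity, was 1.53 where the others had 1.52 to 1.71. As a check of the tissue, 26 of 28 listed neuron markers were measured, and the neuronal gene Snap25 was at 11.69 or more on all 10 arrays. By Xist, which only females transcribe, and the Y-linked Eif2s3y, numbers 6 and 7 were male and numbers 8, 9 and 10 female in both groups.

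Preconditioning changed the level of 413 of 18625 probe sets, 2.22% of those tested, with 204 higher and 209 lower. With 1 probe set per gene, 267 of 10304 genes changed (2.59%), 115 of them higher (1.12%) and 152 lower (1.48%). The largest rises were those of the vessel gene Angpt2, 3.53-fold, the immediate early gene Fos, 2.87-fold, and the clock gene Per1, 2.54-fold with 3 sham arrays at the floor. At an unadjusted p under 0.05 in limma, 679 genes were higher (6.59%) and 1202 lower (11.7%), the background for the unadjusted counts given with the lists. The falls were led by Serpinb6b, a member of the serine protease inhibitor family, at 0.483 of the sham level. Without overlap between the groups, the preconditioned side was higher in 307 probe sets (1.65%) and lower in 375 (2.01%). With each array centred on its median the split of calls shifted from 49.4% to 62.3% higher. Treating the sample number as a replicate block over all arrays of the series raised the count to 677 (3.63%). Whether equal numbers go together was checked only in numbers 6 to 10. Without the block, leaving out PC6 lowered the count of 413 to 219 (1.18%). Leaving out Sham 7 or Sham 8 lowered it to 236 and 217. In genes, the block gave 168 of 10304 higher and 249 lower, where the fit without it gave 115 and 152. These are the background for the block counts given with the lists.

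**Figure D1:**
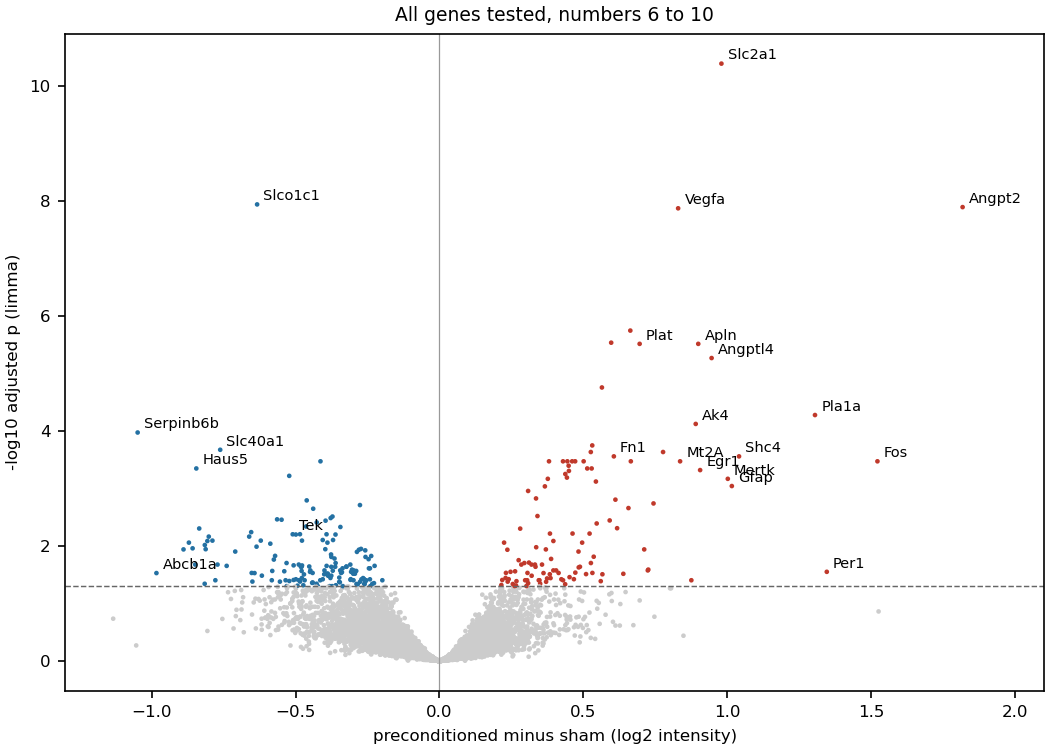
Each point is a gene tested in numbers 6 to 10, with the preconditioned minus sham difference (log2 intensity) on the x axis and the negative log10 of limma's adjusted p on the y axis. The 115 genes that rose include Slc2a1, Vegfa and Angpt2 at the top right, and the 152 that fell include Slco1c1 at the top left.

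A part of the genes of glucose supply and the oxygen response rose. In the list of HIF targets and glycolysis, 15 of 39 measured genes rose and 0 fell, and the median difference was 0.28 beside -0.03 over all genes tested. At an unadjusted p under 0.05 in limma, 26 were higher and 1 was lower. The 15 were Slc2a1, Vegfa, Angptl4, Ak4, Vldlr, Ldha, Kdm3a, Ddit4, Higd1a, Ndrg1, P4ha1, Pdk1, Mxi1, Egln1 and Aldoc. Slc2a1 encodes the glucose transporter GLUT1 of the brain's vessels. It read 8.80, 8.80, 8.57, 8.83 and 9.06 on PC6 to PC10 and 7.92, 7.87, 7.88, 7.70 and 7.78 on Sham 6 to Sham 10. The groups did not overlap, and the lowest preconditioned array was above the highest sham array. Its difference was 0.98 (SE 0.08, adjusted p = 4.0e-11), the smallest p of all HIF list members.

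A form of the core letters that HIF recognises in DNA, ACGTG on either strand (CACGT on the other), was searched in the 250 bases before each gene's start. Other forms were not searched. RefSeq promoters of build GRCr8 were used, in which 16.9% of all 27457 promoters held the motif. Of the tested genes with a promoter in the table, 22.7% of 8636 held it. So did 30 of 98 genes that rose (30.6%) and 23 of 134 that fell (17.2%). Of the HIF list members that rose it was 7 of 14 (50%), but the share among members that did not rise was not computed. A list of HIF targets may be rich in the motif whether or not its members rose. The 4 risen HIF list members with the smallest p among those that hold the motif are shown, to set the letters beside their values. Vegfa, Ak4, Vldlr and others of the 15 are not shown. Letters are in the direction of the gene, with the motif in capitals. A match is a description of the letters and not a binding site.
Slc2a1, chr5:138002272-138002521, plus strand: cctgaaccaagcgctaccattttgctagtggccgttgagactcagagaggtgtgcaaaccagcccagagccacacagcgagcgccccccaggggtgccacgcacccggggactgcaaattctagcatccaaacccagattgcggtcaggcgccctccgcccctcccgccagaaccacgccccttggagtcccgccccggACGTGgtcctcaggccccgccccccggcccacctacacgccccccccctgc
Angptl4, chr7:15258682-15258931, minus strand: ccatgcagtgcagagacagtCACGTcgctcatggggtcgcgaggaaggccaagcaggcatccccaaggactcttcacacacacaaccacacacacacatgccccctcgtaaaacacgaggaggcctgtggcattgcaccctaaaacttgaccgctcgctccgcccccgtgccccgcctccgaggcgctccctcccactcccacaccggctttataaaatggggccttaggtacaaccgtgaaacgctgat
Ldha, chr1:106507842-106508091, plus strand: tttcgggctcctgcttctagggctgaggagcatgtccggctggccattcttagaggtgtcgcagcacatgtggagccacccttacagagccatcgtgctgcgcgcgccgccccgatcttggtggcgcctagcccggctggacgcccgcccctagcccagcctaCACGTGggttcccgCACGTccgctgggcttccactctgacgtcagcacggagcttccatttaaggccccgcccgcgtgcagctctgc
Ddit4, chr20:28437038-28437287, minus strand: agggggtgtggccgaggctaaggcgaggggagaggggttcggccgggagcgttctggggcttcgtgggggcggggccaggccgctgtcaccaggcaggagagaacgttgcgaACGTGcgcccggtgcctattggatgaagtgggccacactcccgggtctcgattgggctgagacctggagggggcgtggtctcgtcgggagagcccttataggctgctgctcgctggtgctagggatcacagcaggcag
The Slc2a1 motif lay 51 bases before the start, that of Ddit4 138 and that of Angptl4 230. Ldha had 3 matches, at 87, 86 and 73 bases, of which the former pair overlap on opposite strands.

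Angptl4, an inhibitor of lipoprotein lipase, read 8.25, 7.96, 7.66, 7.84 and 8.29 after preconditioning and 6.97, 7.15, 6.91, 6.85 and 7.39 after sham. Again every preconditioned array was above every sham array, with a difference of 0.95 (SE 0.13, adjusted p = 5.3e-06). Ldha, the lactate dehydrogenase subunit that closes glycolysis when oxygen is short, was at 11.94 on PC6, at 11.25 to 11.40 on PC7 to PC10 and at 10.78 to 11.09 on the sham arrays. Its rise was 0.53 (SE 0.09, adjusted p = 4.5e-04) and kept its call without PC6, at 2.2e-03. Ak4, a mitochondrial adenylate kinase, rose by 0.89 (SE 0.13), from 5.97 to 6.28 in sham to 6.93 to 7.18. Ddit4, a brake on growth signalling through mTOR, rose by 0.45 (SE 0.08), and Pdk1, a kinase that inhibits pyruvate dehydrogenase, by 0.39 (SE 0.09). Kdm3a, an oxygen-dependent histone demethylase, rose by 0.51 (SE 0.09), and Egln1, the oxygen sensor that marks HIF for breakdown, by 0.31 (SE 0.08). Egln1 and Mxi1, a repressor of Myc activity, lost their calls without PC6, at adjusted p = 0.0787 and 0.0985. The glycolytic enzyme Aldoc lost its call too, at 0.187, and its adjusted p lay between 6.1e-04 and 0.214 over all alternatives. With the sample number as a block 19 members rose, adding Bnip3, Tpi1, Gpi and Bhlhe40, beside 168 of all 10304 genes tested. The transferrin receptor Tfrc fell under that block, by 0.32 at adjusted p = 0.0179, while its p without the block was 0.0542.

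**Figure D2:**
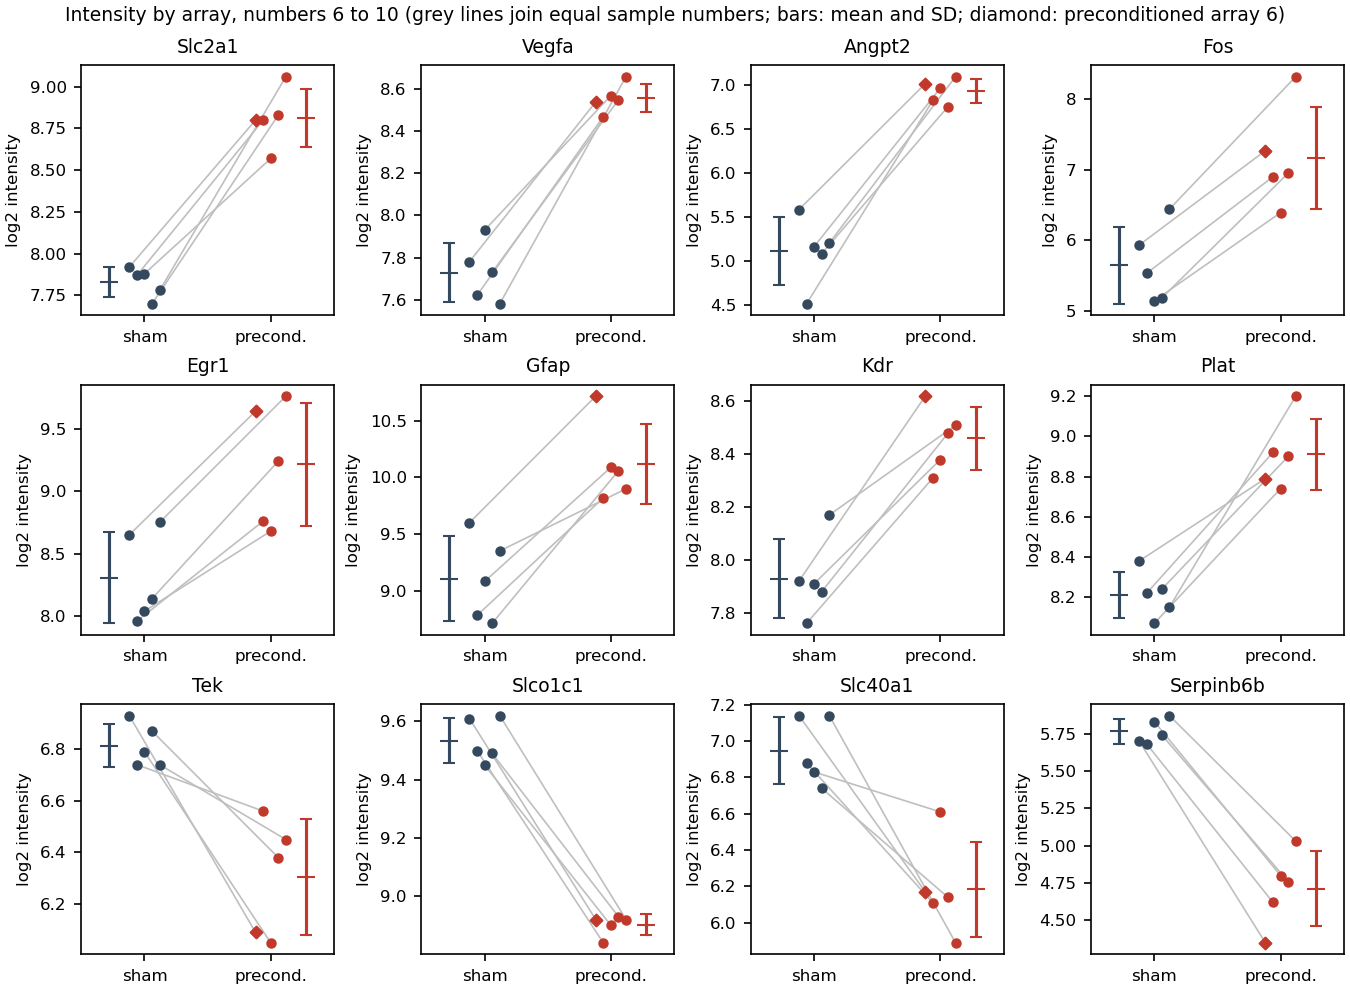
Log2 intensity of 12 genes on each array of numbers 6 to 10, sham in dark blue and preconditioned in red, with grey lines joining equal numbers, bars for the mean and SD, and a diamond for PC6. Slc2a1, Vegfa, Angpt2, Kdr, Plat, Slco1c1, Slc40a1, Tek, Gfap and Serpinb6b show no overlap between the groups, while Fos and Egr1 overlap although each of their lines runs upward.

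Among signals for vessel growth, the ligands Vegfa, Angpt2 and Apln rose. Of 27 measured angiogenesis genes, 6 rose and 1 fell, with a median difference of 0.11. Angpt2, the angiopoietin that loosens endothelial contacts, read 7.01, 6.82, 6.96, 6.75 and 7.09 after preconditioning and 5.58, 4.51, 5.16, 5.08 and 5.20 after sham. The gap between the lowest preconditioned and the highest sham array was wider than the range within either group. Its difference was 1.82 (SE 0.18, adjusted p = 1.3e-08), the largest rise of any called gene. Vegfa read 8.54, 8.47, 8.57, 8.55 and 8.66 against 7.78, 7.62, 7.93, 7.73 and 7.58, a difference of 0.83 (SE 0.08, adjusted p = 1.3e-08). A further Vegfa probe set rose by 0.66 at adjusted p = 3.4e-04. Apln, the ligand of the apelin receptor on sprouting vessels, rose by 0.90 (SE 0.12), from 6.46 to 6.88 in sham to 7.19 to 7.77.

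The receptors moved in opposite directions. Kdr, the main Vegfa receptor, read 8.62, 8.31, 8.38, 8.48 and 8.51 against 7.92, 7.76, 7.91, 7.88 and 8.17, and rose by 0.53 (SE 0.08, adjusted p = 1.8e-04). Tek, the angiopoietin receptor, read 6.09, 6.56, 6.05, 6.38 and 6.45 against 6.93, 6.74, 6.79, 6.87 and 6.74, and fell by 0.51 (SE 0.11, adjusted p = 6.2e-03). Neither receptor's groups overlapped. Flt1, the other Vegfa receptor, differed by 0.80 (SE 0.23), with adjusted p = 0.0543 without the block and 0.0325 with it. Plat, the tissue plasminogen activator, rose by 0.70 (SE 0.09), and Igfbp3, which binds insulin-like growth factors, by 0.78 (SE 0.13). In a whole-tissue sample, more or fewer cells of a type and more or less RNA per cell cannot be told apart. Of 22 measured endothelial markers 4 rose, Slc2a1, Kdr, Vwf and Ets1, and 3 fell, Slco1c1, Tek and Abcb1a. The log2 of their summed intensity was 11.74 to 11.91 after preconditioning and 11.75 to 11.86 after sham. That sum includes the genes called in either direction, so it does not measure the amount of endothelium. The junction gene Cldn5 differed by 0.02 (SE 0.08). Vwf, the clotting factor of endothelial granules, rose by 0.54 (SE 0.13), was higher in 4 of the 5 equal-number comparisons, and lost its call without PC6, at adjusted p = 0.0533 in a range of 3.2e-03 to 0.119 over all alternatives.

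Transporters of the blood-brain barrier changed both ways. Of 24 measured barrier genes, 3 rose (Slc2a1, Cav1, Slc3a2) and 4 fell (Slco1c1, Slc40a1, Slc7a1, Abcb1a). With the sample number as a block 7 fell, adding Tfrc, the taurine transporter Slc6a6 and the amino acid transporter Slc38a5. Slco1c1 carries thyroid hormone into the brain. It read 8.92, 8.84, 8.90, 8.93 and 8.92 after preconditioning against 9.61, 9.50, 9.45, 9.49 and 9.62, with an SD of 0.04 among the preconditioned arrays. It fell by 0.63 (SE 0.06, adjusted p = 1.1e-08). Slc40a1, the iron exporter ferroportin, read 6.17, 6.11, 6.61, 6.14 and 5.89 against 7.14, 6.88, 6.83, 6.74 and 7.14, and fell by 0.76 (SE 0.12, adjusted p = 2.1e-04). A further probe set of it fell by 0.82. Slc7a1, a carrier of arginine and lysine, fell by 0.27 (SE 0.06), and Cav1, the coat protein of caveolae, rose by 0.43 (SE 0.07). Further Slc7a1 probe sets differed by -0.11 and -0.58 and were not called (limma's adjusted p = 0.413 and 0.0622). Abcb1a, the drug pump P-glycoprotein, fell by 0.98 (SE 0.26, adjusted p = 0.0295). Another Abcb1a probe set differed by 0.09, and the call was lost when PC6, PC9 or Sham 6, 7, 8 or 10 was left out, with adjusted p between 0.0235 and 0.0874 over the 10 omissions. The amino acid transporter subunit Slc3a2 rose by 0.25 (SE 0.07, adjusted p = 0.0457) and lost its call under 16 of 26 alternatives, PC6 left out among them, at adjusted p of 0.0129 to 0.276.

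A few matrix genes of the vessel wall and enzymes that modify collagen rose. Of 30 measured genes of the basement membrane list 5 rose and 0 fell in limma (7 higher and 3 lower at an unadjusted p under 0.05), namely fibronectin Fn1, the laminin Lama4, the collagen Col4a1 and the collagen-modifying enzymes P4ha1 and Plod2. Fn1 read 8.79, 9.20, 9.14, 8.97 and 8.59 against 8.28, 8.46, 8.48, 8.40 and 8.03. All 5 preconditioned arrays were above all 5 sham arrays, and the difference was 0.61 (SE 0.10, adjusted p = 2.7e-04). P4ha1 rose by 0.61 (SE 0.12), Plod2 by 0.62 (SE 0.13), Lama4 by 0.44 (SE 0.07) and Col4a1 by 0.34 (SE 0.08). The 5 calls were kept with every array left out in turn. Adamts9, a protease that cuts matrix proteoglycans, rose by 0.88 (SE 0.24, adjusted p = 0.0393), with Sham 9 at the floor. Its call was lost without PC7, PC8, PC9, PC10, Sham 6 or Sham 9, and its adjusted p over all alternatives was 0.0154 to 0.171.

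Gfap, the intermediate filament of astrocytes, rose 2.02-fold. It read 10.72, 9.82, 10.09, 10.06 and 9.90 after preconditioning and 9.60, 8.78, 9.08, 8.71 and 9.35 after sham. The groups did not overlap, PC6 and Sham 6 were the highest of their groups, and each preconditioned array exceeded the sham array of its number, by 0.55 to 1.36. The difference was 1.02 (SE 0.19, adjusted p = 9.0e-04), and 0.87 without PC6 (7.5e-03). Of 20 measured astrocyte markers 3 rose (Gfap, Glul and Aldoc) and 0 fell, with 5 higher and 2 lower at an unadjusted p under 0.05 in limma. Without PC6, only Gfap of the 3 kept its call and Slc1a2, the main glutamate transporter, was called lower at adjusted p = 0.0314. The list's median difference was 0.13 with PC6 and 0.02 without it. The log2 of its summed intensity ranged from 14.21 to 14.80 after preconditioning, with PC6 the array of highest mean level, and from 14.02 to 14.37 after sham. Glul, which makes glutamine from glutamate, was at 11.38 on PC6, at 10.74 to 10.89 on the other preconditioned arrays and at 10.25 to 10.72 in sham. It rose by 0.41 (SE 0.10, adjusted p = 0.0265), and by 0.29 without PC6, where the call was lost at 0.131 (5.98e-04 to 0.155 over all alternatives). Further Glul probe sets rose by 0.36 and 0.38. Leaving out Sham 7, Sham 8 or Sham 9 also left Gfap as the only astrocyte call. The part of PC6 in the rise of astrocyte markers beyond these values was not tested.

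Immediate early genes, which neurons switch on within minutes of a stimulus, were represented by 2 rises among 23 measured members, Fos and Egr1, and 0 falls in limma (10 higher and 1 lower at an unadjusted p under 0.05). The transcription factor Fos read 7.27, 6.90, 6.39, 6.95 and 8.32 against 5.93, 5.53, 5.14, 5.18 and 6.44. Number 10 was the highest and number 8 the lowest in both groups, so the groups overlapped at PC8 and Sham 10 while every number rose, by 1.25 to 1.88. Its difference was 1.52 (SE 0.26, adjusted p = 3.3e-04) and its adjusted p with the block was 3.8e-06. Egr1 read 9.64, 8.76, 8.68, 9.24 and 9.76 against 8.65, 7.96, 8.04, 8.14 and 8.75, with number 10 again the highest of both groups, and rose by 0.91 (SE 0.16, adjusted p = 4.8e-04). Fitted on the 10 arrays alone without the block, Egr1 was at adjusted p = 0.0667, in a range of 3.7e-08 to 0.0667. Dusp6, a phosphatase that shuts off the ERK kinases, differed by 0.33 (SE 0.12), with adjusted p = 0.138 without the block and 0.0318 with it.

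Targets of the glucocorticoid receptor made up the list with the largest share of calls among the 28, 13 of 22 measured genes higher and 0 lower in limma (17 and 0 at an unadjusted p under 0.05), at a median difference of 0.48. Angptl4 and Ddit4 belong to the HIF list as well and Glul to the astrocyte markers. The others were Errfi1, Mt2A, Sgk1, Txnip, Fkbp5, Nfkbia, Per1, Sult1a1, Sdc4 and Klf9. Sgk1, a kinase induced by steroids, read 9.61, 9.29, 9.01, 9.27 and 9.59 against 8.96, 8.81, 8.82, 8.84 and 8.99. The groups did not overlap, and the rise was 0.47 (SE 0.08, adjusted p = 3.3e-04). The metallothionein Mt2A rose by 0.84 (SE 0.14), Errfi1, a feedback inhibitor of the EGF receptor, by 0.53 (SE 0.09), and Fkbp5, a chaperone of the receptor itself, by 0.53 (SE 0.13). Txnip, which binds thioredoxin, rose by 0.59 (SE 0.12). The clock gene Per1 read 6.15, 6.13, 6.12, 5.84 and 6.14 against 4.00, 5.78, 4.00, 4.00 and 5.87, with 3 sham arrays at the floor. Its difference of 1.35 (SE 0.35, adjusted p = 0.0281) therefore rests on values that have no order. That call was lost without PC6, PC10, Sham 6, Sham 8 or Sham 9, with adjusted p over all alternatives of 6.6e-03 to 0.134. Leaving out PC6, Sham 7, Sham 8 or Sham 10 left 8 of the 13 list members higher. Tsc22d3, a classical target of the receptor, differed by 0.14 (SE 0.07, adjusted p = 0.265).

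**Figure D3:**
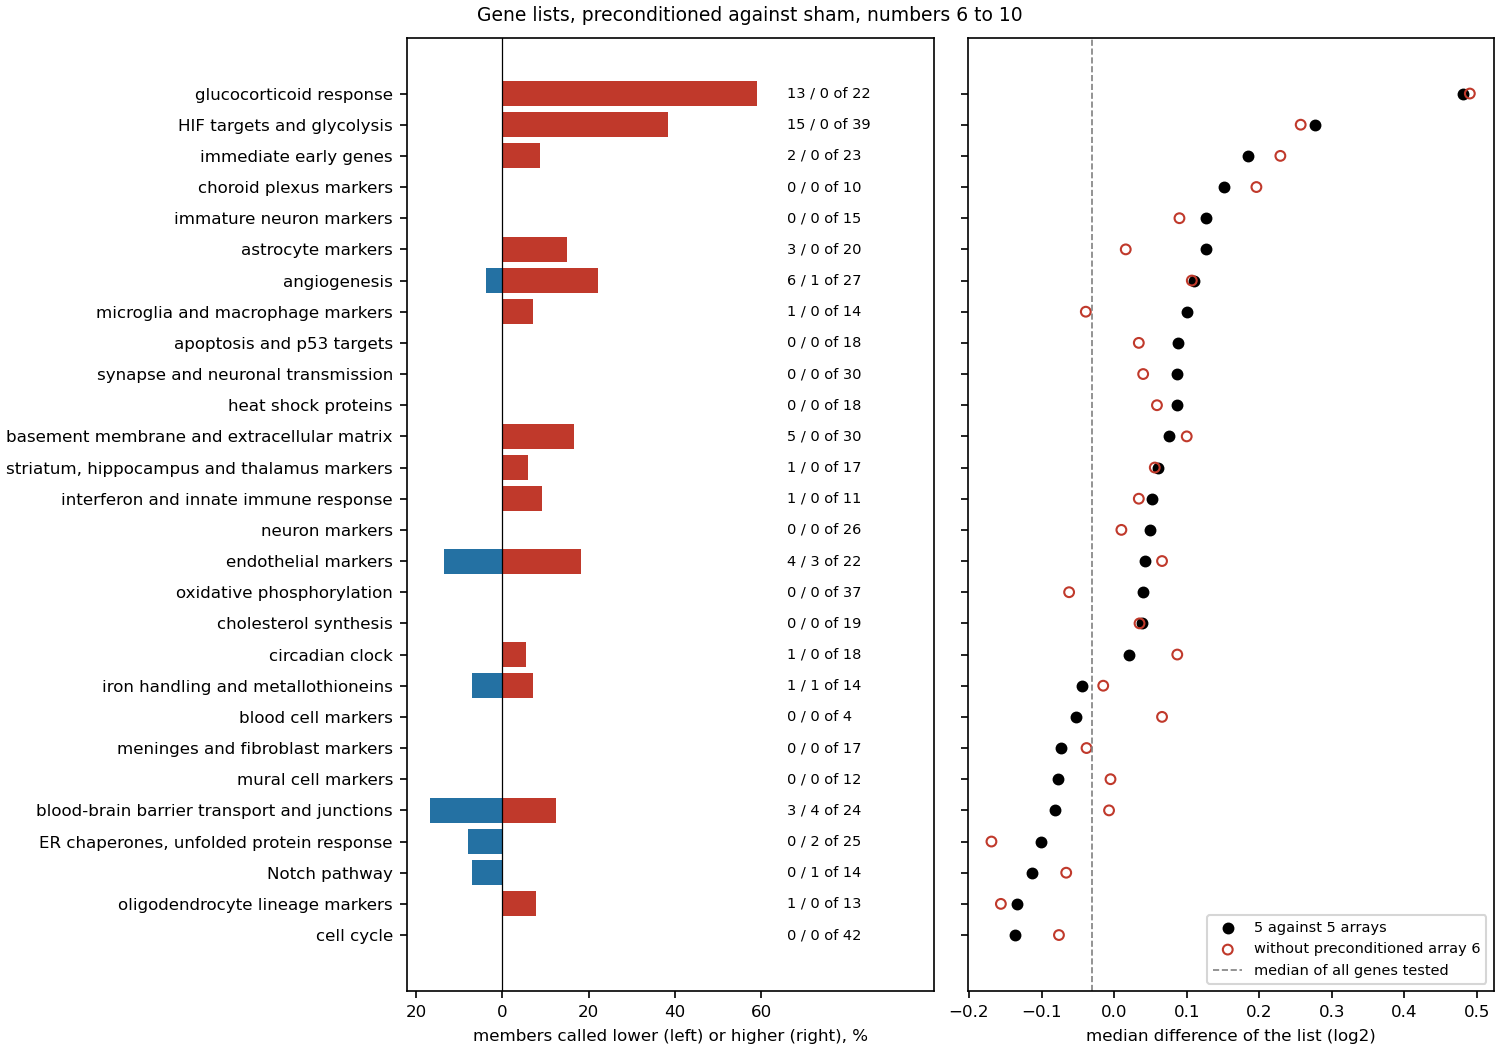
The left panel gives the percentage of measured members of each of 28 lists that fell (left) or rose (right) in limma, and the right panel the median difference of each list (log2), filled for 5 against 5 arrays and open without PC6, with a dashed line at the median of all genes tested. The glucocorticoid list (13 of 22) and the HIF list (15 of 39) reach furthest right, and the open and filled points lie furthest apart for the microglia, blood cell and astrocyte markers.

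Chaperones of the endoplasmic reticulum, which fold secreted proteins, held 2 falls and 0 rises among 25 measured genes in limma (6 lower and 3 higher at an unadjusted p under 0.05). Sdf2l1 read 7.72, 7.52, 7.17, 7.32 and 7.00 against 7.99, 7.92, 7.75, 7.97 and 7.83, all 5 below all 5, and fell by 0.55 (SE 0.11, adjusted p = 3.5e-03). Creld2 fell by 0.58 (SE 0.16, adjusted p = 0.0393), though PC6 and Sham 6 were level at 8.23 and 8.22. The list held 1 call without PC9, PC10, Sham 7 or Sham 9, and Creld2 had adjusted p between 0.00625 and 0.148 over all alternatives. With the block 5 genes fell, adding Dnajb11, Hspa13 and the stress sensor Eif2ak3, while the abundant chaperone Hspa5 differed by -0.06 (SE 0.11). In the Notch list 1 of 14 fell. Hes5, a Notch-driven repressor of neural precursors, was at 4.43 on PC10 and at 5.92 to 6.45 on the other preconditioned arrays, against 6.31 to 6.79 in sham. The groups overlapped, and its fall of 0.74 (SE 0.18, adjusted p = 0.0221) lost its call without Sham 7 or Sham 8 (up to 0.0692).

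Other cell markers gave few calls. Mrc1, the mannose receptor of macrophages along vessels, was the only call among 14 microglia and macrophage markers. It read 6.58, 6.92, 6.50, 6.93 and 6.39 against 6.13, 5.82, 6.07, 5.88 and 5.71, without overlap, and rose by 0.74 (SE 0.14, adjusted p = 1.8e-03). Pdgfra, the receptor that marks oligodendrocyte precursors, rose by 0.45 (SE 0.08, adjusted p = 4.0e-04), with PC6 at 10.25 and PC7 to PC10 at 9.70 to 9.82. It was the only call among 13 oligodendrocyte lineage markers, of which 3 had a positive difference, and their median was -0.13 (1 higher and 3 lower at an unadjusted p under 0.05). Pde10a, a phosphodiesterase abundant in the striatum, was the only call among 17 markers of neighbouring brain regions. It rose by 0.33 (SE 0.08, adjusted p = 0.0229) and lost its call without PC6, PC7, Sham 8 or Sham 9, at up to 0.0679. Limma called 0 of 26 neuron, 0 of 15 immature neuron, 0 of 12 mural, 0 of 17 meningeal, 0 of 10 choroid plexus and 0 of 4 blood cell markers. At an unadjusted p under 0.05 these lists held 1, 4, 0, 2, 3 and 1 higher and 0, 0, 2, 3, 0 and 0 lower members. With the block the neuronal kinase Camk2a and the growth cone protein Dpysl3 rose, and Gal3st1, an enzyme of myelin lipids, fell.

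Single markers of 2 neighbouring tissues differed between arrays. Haemoglobin Hbb read 12.96, 12.46, 12.28, 12.34 and 12.41 after preconditioning and 12.20, 12.23, 12.19, 11.73 and 12.16 after sham. Every preconditioned array was above every sham array. The difference of Hbb was 0.39 (SE 0.14, limma's adjusted p = 0.143). The log2 of the summed blood markers was 12.33 to 12.99 after preconditioning and 11.80 to 12.29 after sham, but that sum is nearly all Hbb. Of the other measured blood markers, Alas2 differed by 0.23, Ahsp by -0.48 and Slc4a1 by -0.33. None of the 4 was called, and their median difference was -0.05. Transthyretin Ttr, which the choroid plexus makes in bulk, was at 5.96 on Sham 9 and at 11.42 to 12.56 on the other 9 arrays. What these differences contribute to the vessel and glial results was not tested.

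No gene was called in limma among 18 heat shock proteins, 19 genes of cholesterol synthesis, 42 of the cell cycle, 37 of oxidative phosphorylation, 18 of apoptosis and p53 and 30 of the synapse. At an unadjusted p under 0.05 they held 7, 1, 0, 3, 2 and 3 higher and 1, 3, 8, 1, 0 and 1 lower members. With the block, the cell cycle genes Cks2 and Gmnn fell, and the synaptic genes Camk2a, Gria2 and Grin1 rose at adjusted p = 0.046, 0.0398 and 0.0354. Of the 42 cell cycle genes 5 had a positive difference, beside 4324 of all 10304 genes tested. Their median was -0.14, and -0.08 without PC6, the preconditioned array with the lowest mean level of this list. Further lists held calls already described, which were Per1 among 18 clock genes, Nfkbia among 11 interferon and innate immune genes, and Mt2A up and Slc40a1 down among 14 genes of iron and metallothionein. With the block these lists added Bhlhe40 and Stat3 as higher and Tfrc as lower.

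Further large rises fell outside these lists. Pla1a, a phospholipase specific for phosphatidylserine, rose by 1.31 (SE 0.19), with Sham 7 at the floor. Mertk, a receptor by which phagocytes take up dying cells, read 5.90, 6.36, 6.02, 6.10 and 6.28 against 4.79, 5.45, 4.99, 5.06 and 5.35, and rose by 1.00 (SE 0.18, adjusted p = 6.8e-04). Its 5 equal-number differences were 0.90 to 1.11. Shc4, an adaptor of receptor tyrosine kinases, rose by 1.04 (SE 0.17). Among the falls, Serpinb6b read 4.35, 4.62, 4.80, 4.76 and 5.03 against 5.70, 5.68, 5.83, 5.74 and 5.87, and fell by 1.05 (SE 0.16, adjusted p = 1.1e-04). No sham array was below a preconditioned array. Ndufa4l2, which HIF induces in several other cell types, fell by 0.79 (SE 0.17, adjusted p = 8.0e-03). Procr, the endothelial receptor of protein C, fell by 0.81 (SE 0.19), and its call was lost without PC6 or Sham 7, at 0.0571 and 0.0645. Polr3b, a subunit of RNA polymerase III, fell by 0.86 (SE 0.20), Haus5, a subunit of the spindle complex augmin, by 0.85 (SE 0.15), and Apol3l1 by 0.84 (SE 0.18). Cyyr1 fell by 0.89 (SE 0.20) and Tcf7, a transcription factor of the Wnt pathway, by 0.80 (SE 0.17). Fndc3a was at 6.12 on PC6 and at 7.36 to 7.64 on the other preconditioned arrays, against 7.92 to 8.11 in sham, and fell by 0.81 with PC6 and 0.54 without it. Pced1a, Stard8, Pik3ap1 and Acyp2 fell by 0.87, 0.85, 0.82 and 0.78 and lost their calls without PC6, at adjusted p of 0.0569, 0.0991, 0.0596 and 0.178. Stard8 also lost its call without PC10 or Sham 8, and Acyp2 without PC9, Sham 7, Sham 8 or Sham 10. Tmem231, a protein of the base of the cilium, fell by 0.82 at adjusted p = 0.0453 and lost its call when any array but PC8 and Sham 6 was left out (0.0111 to 0.119). Where a called gene had further probe sets (75 genes, 99 probe sets), 89 had the same sign and 20 were called the same way, while 0 were called the opposite way in limma.

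Equal sample numbers went together in the 2 groups. The deviations of PC6 to PC10 from their group mean correlated with those of the sham array of the same number at 0.208, 0.238, 0.159, 0.186 and 0.205 over 18625 probe sets. For the 20 combinations of unlike numbers the correlation ran from -0.214 to 0.103, with a median of -0.052. Equal numbers also had the same sex. With the number as a block over all arrays, 399 of the 413 calls remained among 677, with 328 higher and 349 lower. The correlations were not computed for the other runs of numbers, so that block assumes an unchecked pairing there. Fitted on the 10 arrays alone, 96 probe sets were called without the block (0.515%), 66 higher and 30 lower. With the block, these 10 arrays gave 313 (1.68%), 163 higher and 150 lower, of which 218 were among the 413. The 62 genes named by rule stayed on their side of the threshold with the block in the fit of all arrays. With that block, Gfap went from limma's adjusted p = 9.0e-04 to 3.8e-08 (SE 0.19 to 0.09). Egr1 went from 4.8e-04 to 3.7e-08 (SE 0.16 to 0.08). Slc2a1 went from 4.0e-11 to 2.0e-08, though its SE was 0.08 in both fits.

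**Figure D4:**
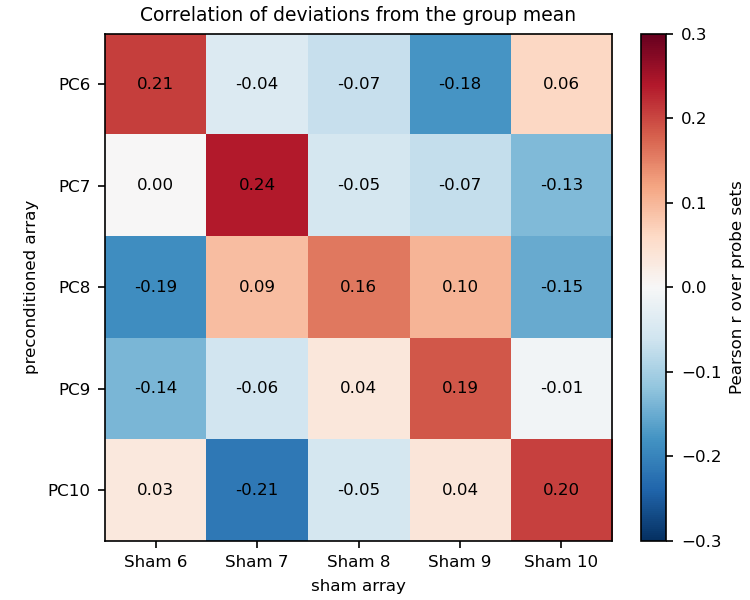
Pearson correlation over 18625 probe sets between the deviations of each preconditioned array (rows) and each sham array (columns) from their group means. The 5 values on the diagonal, where numbers are equal, are 0.159 to 0.238, and the 20 others are -0.214 to 0.103.

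The weight of PC6 was felt most among the falls. PC6 was the preconditioned array farthest from sham in 121 of the 209 probe sets called lower (57.9%) and in 63 of the 204 called higher (30.9%), where equal shares would give 20%. Over all probe sets the same shares were 36.5% and 21.7%. Without PC6, 66 of the lower and 127 of the higher calls remained, and the total was 219, with 140 higher and 79 lower. All 413 kept their sign. The median difference of the probe sets called lower moved from -0.44 to -0.37, and that of those called higher from 0.42 to 0.41. limma's array weight for PC6 was 0.279, against 0.734 to 1.38 for the others, and a fit with these weights called 419 probe sets, 227 higher and 192 lower. On the first principal component of the 10 arrays, with 26.5% of the variance, PC6 was at 44.9 and the others between -15.5 and 6.6. The adjusted p of Bbs4, Cyp20a1, Slc3a2, Sulf2 and Ccdc25 rose most without PC6, to 0.209 to 0.235. Cyp20a1, a cytochrome P450, was at 7.05 on PC6, at 7.91 to 8.11 on the other preconditioned arrays and at 8.16 to 8.36 in sham, and its difference went from -0.42 to -0.24. Ccdc25 went from -0.55 to -0.33, Bbs4, a protein of the cilium, from -0.38 to -0.26, and Sulf2, which trims sulfate from heparan chains, from 0.26 to 0.18. These 5 also lost their calls without 4 to 7 of the other arrays. A further Bbs4 probe set differed by 0.13, with the opposite sign and no call. Other arrays mattered as well. The count was 217 without Sham 8, 236 without Sham 7 and 584 without PC8, and the lower calls were 90, 97 and 319. Without Sham 9 the lower calls were 129. Slc2a1, Vegfa, Angpt2, Plat, Apln, Kdr, Slco1c1, Slc40a1 and Serpinb6b kept their calls when any of the 10 arrays was left out.

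**Figure D5:**
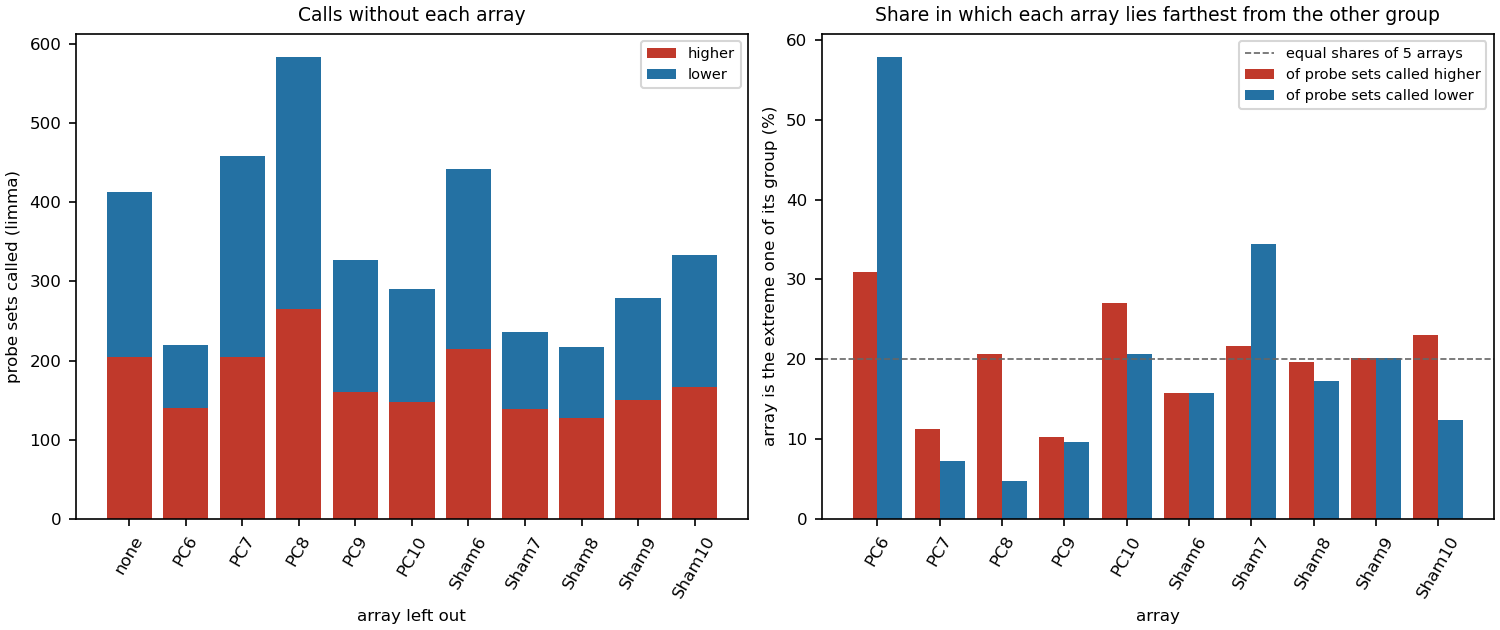
The left panel gives the number of probe sets that limma called higher (red) and lower (blue) when the array on the x axis was left out. The right panel gives, for each array, the percentage of called probe sets in which it lay farthest from the other group, with a dashed line at 20% for equal shares; PC6 reached 57.9% of the probe sets called lower, and the totals on the left run from 217 without Sham 8 to 584 without PC8.

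Against the other runs of numbers, the response differed in few probe sets. The difference itself was tested in the same fit, and the runs share no array. From numbers 1 to 5 it differed in 10 probe sets (0.0537%), and from numbers 11 to 15 in 52 (0.279%), a count that was 33 without Sham 8 and 85 without PC8. Ddit4 rose by 0.45 here and was higher by 1.56 in numbers 1 to 5, a difference of -1.11 (SE 0.11, adjusted p = 2.1e-08). For Kdm3a the values were 0.51 and 1.31, a difference of -0.80 (SE 0.13, adjusted p = 6.5e-04). Depp1, a gene known to be induced by fasting, was at 0.19 here and at 2.08 there, and the adaptor Sh2b3 at 0.03 and 0.88; both were singled out after their values were seen. These 4 differences kept their calls with any of the 10 arrays of numbers 6 to 10 left out. The arrays of numbers 1 to 5 were not left out in turn. Among them PC5 had a median of 5.59, 27.4% of probe sets at the floor and an array weight of 0.343. Without PC5 and PC6, 13 probe sets differed from numbers 1 to 5. Vegfa was at 0.83 and 1.42, a difference of -0.59 (SE 0.12, adjusted p = 0.026). Txnip went the other way, 0.59 here against -0.25 in numbers 1 to 5, also at 0.026. Neither call was kept without PC6, PC8, Sham 8 or Sham 9, that of Vegfa not without PC7, PC9 or Sham 6 either, and that of Txnip not without PC10, Sham 7 or Sham 10, with adjusted p up to 0.10 and 0.088.

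Several vessel genes that rose here had differences near or below 0 in numbers 11 to 15. Apln was at 0.90 here and -0.68 there, a difference of 1.58 (SE 0.16, adjusted p = 8.2e-08). Angpt2 was at 1.82 and -0.19, a difference of 2.01 (SE 0.26, adjusted p = 1.5e-05). Plat was at 0.70 and -0.06, Ak4 at 0.89 and -0.28, Kdr at 0.53 and -0.05, and Fos at 1.52 and -0.52. Of the transporters, Slc2a1 was at 0.98 and 0.24, Slco1c1 at -0.63 and 0.00 and Slc40a1 at -0.76 and 0.10. Tek was at -0.51 and 0.22. Each of these 10 differences passed its own test and kept that call with any of the 10 arrays left out. Vegfa was at 0.34 in numbers 11 to 15, Vwf at 0.61, Lama4 and Col4a1 at 0.34 and Fn1 at 0.29, and their differences from the values here did not pass the test, with adjusted p of 0.061 for Vegfa and 0.461 or more for the others. Gfap was at 1.02 here and 1.07 there (difference -0.05, SE 0.26, adjusted p = 0.97). In numbers 16 to 20, Slc2a1 differed by 0.06, Vegfa by 0.12, Angpt2 by 0.10 and Gfap by 0.03. The difference from those numbers was not tested.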

How the data were processed

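The authors deposited a linear intensity for each probe set of 1-colour Affymetrix arrays. Their software and scaling are not named in the labels used here, but each array's deposited mean without its lowest and highest 2% was 150.04 to 150.06, and 0 columns belonged to no sample. Groups and numbers came from the sample descriptions.

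From the deposited intensities, values under 16 were set to 16 and log2 was taken, without further normalization. Control probe sets (57 of 31099) were left out, and probe sets at or above the 40th percentile of the mean over 40 arrays (intensity 31.9) were kept, 18625 of 31042. Gene names came from the platform annotation, and 20764 of 20832 entries with 1 gene matched a RefSeq gene ID. Among the kept probe sets 14273 had 1 gene, 309 several and 4043 none, and the probe set of highest mean stood for each of 10304 genes.

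limma 3.58.1 in R 4.3.3 (lmFit, eBayes with a mean trend, two-sided) was fitted to 8 group means over 40 arrays, with Benjamini-Hochberg adjustment and a threshold of 0.05; it was checked on simulated data. Named by rule were the 15 largest rises and falls, up to 5 called members of each of 28 lists, 8 fixed genes and the 5 whose adjusted p rose most without PC6. Other list members were named after their values were seen. Promoters are RefSeq sequences of GRCr8. The numbers were taken to pair the samples because all 5 equal-number correlations of deviations from the group means were over 0.1 (0.159 to 0.238). That pairing comes from the data, since the labels do not say what a number marks. It was checked in numbers 6 to 10 only, and the block over all arrays assumes it for the other numbers. The samples, gene lists and tests were chosen with earlier results of these data known. The alternatives changed the floor, filter, scaling, weights, covariate, samples and block.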

Additional observations from a re-analysis of the deposited data

Results flagged for a closer look

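In 10 of 122 gene groups (8.2%) an array lay so far from the other 4 of its group that its gap took up more than 0.71 of the range (Dixon's critical value), where chance flags about 1 in 20 groups of genes not chosen by their values. These genes were chosen by size of change and, for 5, by the weight of PC6, so that rate is no yardstick for them. PC6 was that array in 6 of the 10. The gap was 0.943 of the range for Aldoc, 0.807 for Cyp20a1, 0.812 for Fndc3a, 0.77 for Glul, 0.786 for Pdgfra and 0.747 for Tcf7. PC6 was high for Aldoc, Glul and Pdgfra and low for the other 3. It also lay apart in its array median (0.723) and in its share of probe sets at the floor (0.837). The others were Hes5 on PC10 (0.741), Per1 on PC9 (0.881), Cyyr1 on Sham 10 (0.786) and Pla1a on Sham 7 (0.733), each low.

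The response of numbers 6 to 10 was tested against that of other numbers. Against numbers 1 to 5, Ddit4 (-1.11) and Vegfa (-0.59) were less raised here. Against numbers 11 to 15 the difference was positive for Angpt2 (2.01), Fos (2.04), Apln (1.58), Ak4 (1.17), Mertk (1.11), Mrc1 (0.90), Plat (0.76), Slc2a1 (0.74), Errfi1 (0.73), Kdr (0.58), Ddit4 (0.52), Sgk1 (0.50) and Vldlr (0.41). It was negative for Haus5 (-0.94), Slc40a1 (-0.87), Tek (-0.73) and Slco1c1 (-0.64). Of these differences, that of Ddit4 from numbers 11 to 15 lost its call when either of 2 arrays was left out, those of Vldlr and Haus5 with any of 3, those of Mrc1 and Sgk1 with any of 5, that of Mertk with any of 6 and that of Vegfa with any of 7. Only the arrays of numbers 6 to 10 were left out in turn.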

How the results depend on the processing

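Of the 413 calls, leaving out each of the 10 arrays of numbers 6 to 10 in turn gave 217 to 584, with 127 to 265 higher and 79 to 319 lower. The sample number as a replicate block over all arrays gave 677 calls (328 higher, 349 lower) and took no call from the 62 genes named by rule. Fitted alone, the 10 arrays gave 96 (66 higher, 30 lower), and 28 named genes lost their call. With the block, these 10 arrays gave 313, and 13 named genes lost their call. Without PC5 and PC6 there were 265 calls (107 lower). Of the alternatives, 3 were chosen after seeing the data. The block with median centring gave 628 (387 higher), the block without both arrays of number 6 gave 129 lower calls, and median centring without PC6 gave 207 (71 lower). The count of probe sets whose response differed from numbers 11 to 15, 52, was 81 with array weights, 88 with the block and median centring, and 33 to 85 with each of these 10 arrays left out. Its counterpart for numbers 1 to 5, 10, was 7 to 14. The remaining settings changed no count by over 1.5 times. No named gene that was called changed its direction under the 26 alternatives, of which the stricter filter kept 41 of the 62 named genes. Xist, which was not called, ran from -0.91 to 1.11. Without PC6, 17 of them lost their call. The cause of these shifts was not tested. Values at the floor, 25.7% before the filter and 0.149% after it, have no order, which limits Per1, Pla1a, Adamts9, Tcf7 and Pced1a.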
